A study of Mus musculus with 24 samples.

Results

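The genes of MHC antigen presentation were followed in the liver of mice lacking the major urinary protein (Mup) gene cluster. They are 10 genes chosen by name: H2-K1, H2-D1, B2m, Tap1 and Nlrc5 of the class I pathway, and H2-Aa, H2-Ab1, H2-Eb1, Cd74 and Ciita of the class II pathway. The count files list 25746 genes, and 12330 of them, with all 10 members among them, were tested because no fewer than 6 of the 24 libraries held them at 0.66 CPM or more (CPM being counts scaled to the total of the library). The mice were C57BL/6N (written C57/BL6N in the labels), aged 12 weeks and fed a standard chow ad libitum, with 6 male wildtype (mWT), 6 male knockout (mKO), 6 female wildtype (fWT) and 6 female knockout (fKO) animals and 1 RNAseq library of each liver. The KO mice carry a germline CRISPR/Cas9 deletion of the whole Mup cluster, so that no tissue makes Mup from it. All groups were fasted for some hours and scanned by microCT under isoflurane anaesthesia just before the livers were taken. The KO line goes back to 1 male founder, and homozygous KO and WT mice were bred by crossing heterozygous animals.

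MHC class I molecules are made by nearly all nucleated cells. A heavy chain, encoded in these mice by H2-K1 or H2-D1, pairs with β2-microglobulin (B2m) and is loaded with peptides that the transporter subunit Tap1 helps to pump from the cytosol into the endoplasmic reticulum, for display to CD8 T cells. MHC class II molecules are made mainly by macrophages, dendritic cells and B cells. Their α and β chains (H2-Aa with H2-Ab1, and H2-Eb1 as the β chain of the E molecule) travel with the invariant chain Cd74 and show peptides from endosomes to CD4 T cells. Transcription of both sets depends on co-activators of the NLR family that bind no DNA themselves, Nlrc5 for class I and Ciita for class II, which sit on a complex of RFX, CREB/ATF and NF-Y proteins at a conserved promoter module. In the liver, hepatocytes carry class I, and Kupffer cells, the resident macrophages, are a main site of class II.

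The total count per library ranged from 15361901 to 26261394, so 3 counts correspond to at most 0.195 CPM, a limit that covers counting error only. Total Mup expression, the sum over 22 Mup genes, lay between 17030 and 37390 CPM in mWT and between 3395 and 5259 CPM in fWT mice. It was between 0 and 0.457 CPM in mKO and between 0 and 0.415 CPM in fKO mice, and every library matched its genotype label. The sum of 7 hepatocyte markers was at least 95900 CPM in every mouse, and the 6 pancreas and adipose markers summed to at most 0.879 CPM. A level below is a CPM value scaled by the TMM method, and a gene counts as changed, or called, when its p from the quasi-likelihood test of edgeR, adjusted by Benjamini-Hochberg over all 12330 genes, is under 0.05.

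To compare levels between genes, the members were ordered by RPKM, which is CPM divided by the exon length in kilobases, over all 24 mice. B2m stood first at 1801 ± 149 RPKM (SD, n = 24 mice), above 99.8% of the tested genes with a known length. The heavy chains followed with 313.7 ± 33.1 RPKM for H2-K1 and 126.5 ± 15.9 RPKM for H2-D1, and the ranges of these 3 genes did not overlap with each other or with that of Cd74, at 20.3 ± 8.21 RPKM. H2-Eb1 (5.56 ± 2.23 RPKM), H2-Aa (4.36 ± 1.94), H2-Ab1 (3.84 ± 1.71), Nlrc5 (3.04 ± 0.544) and Tap1 (2.80 ± 0.564) came next, and each of them overlapped with its neighbour in this order. Ciita was lowest with 0.0844 ± 0.0434 RPKM, between 2 and 38 reads in a library, and its range did not reach that of Tap1. The class II genes also varied more between mice of a group. Their biological coefficient of variation was 29.8% for H2-Ab1, 29.3% for H2-Aa, 29.0% for Cd74 and 26% for H2-Eb1, higher than in 89.0% to 92.9% of the tested genes, against 9.84% for B2m and 11.2% for H2-K1.

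In the GENCODE M21 annotation of GRCm38, 6 of the members lie in the MHC on chromosome 17. These are H2-K1 (ENSMUSG00000061232, chr17:33996017-34000347, minus strand), Tap1 (ENSMUSG00000037321, chr17:34187553-34197225, plus), H2-Ab1 (ENSMUSG00000073421, chr17:34257689-34269419, plus), H2-Aa (ENSMUSG00000036594, chr17:34282744-34287823, minus), H2-Eb1 (ENSMUSG00000060586, chr17:34305867-34316674, plus) and H2-D1 (ENSMUSG00000073411, chr17:35262730-35267499, plus). B2m (ENSMUSG00000060802) is at chr2:122147686-122153083, Ciita (ENSMUSG00000022504) at chr16:10480059-10528418, Nlrc5 (ENSMUSG00000074151) at chr8:94434356-94527272 and Cd74 (ENSMUSG00000024610) at chr18:60803848-60812652, all on the plus strand. Of the stretches of 100 bases, the read length, in the transcripts of H2-K1, 0.957% were also found in another gene, mostly H2-Q10, H2-Q5 and H2-Q7, and of those of H2-D1 3.59%, mostly in H2-Q1, Gm7030 and H2-T23. No such stretch was shared by the other 8 members. Exons of Tap1 overlap with Psmb9 on the opposite strand by 212 bases, those of Ciita with Dexi by 329 bases and those of Nlrc5 with 9330175E14Rik by 78 bases, and the strand setting of the counting is not given in the sources used here.

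Letters of the promoter module on which Nlrc5 and Ciita are known to act were looked up in the reference sequence. RefSeq promoter windows (GRCm38.p6) were found for 6 of the 10 members and not for H2-Ab1, Cd74, Ciita and Nlrc5. The last 150 bases before the RefSeq start are shown, 5′ to 3′ on the strand of the gene, for 2 class I and 2 class II genes, as examples of how these letters lie before the genes of each class. The window of H2-D1 is not shown since GENCODE places it inside the transcribed gene. Capitals mark matches on either strand to the Y box core (ATTGG, or CCAAT when read from the other strand), to the core of the CREB/ATF site (TGACG, or CGTCA), and to the core of the interferon response element, which is GAAA, any 2 bases and GAAA again.

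H2-K1, chr17:34000348-34000497, minus strand: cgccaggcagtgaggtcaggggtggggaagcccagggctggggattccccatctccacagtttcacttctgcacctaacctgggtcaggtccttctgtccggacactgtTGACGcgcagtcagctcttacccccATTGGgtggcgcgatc
B2m, chr2:122147537-122147686, plus strand: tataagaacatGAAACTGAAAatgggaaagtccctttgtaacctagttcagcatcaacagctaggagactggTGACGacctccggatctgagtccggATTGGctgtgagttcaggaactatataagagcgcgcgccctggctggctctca
H2-Aa, chr17:34287824-34287973, minus strand: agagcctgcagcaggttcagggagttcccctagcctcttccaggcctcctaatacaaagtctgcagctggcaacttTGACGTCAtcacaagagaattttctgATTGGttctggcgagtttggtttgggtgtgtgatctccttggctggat
H2-Eb1, chr17:34305717-34305866, plus strand: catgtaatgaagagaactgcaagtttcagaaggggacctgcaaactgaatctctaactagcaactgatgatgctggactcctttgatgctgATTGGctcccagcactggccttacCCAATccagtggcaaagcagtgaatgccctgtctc

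In the 250 bases before the start, all 6 members held the Y box core on either strand, as did 33.8% of the 32851 windows in the table. The TGACG core was found in 5 of the 6 (H2-K1, H2-D1, H2-Aa, B2m and Tap1) and in 17.8% of all windows, whereas H2-Eb1 held none. The longer Y box CTGATTGG, which contains the core, was found in 4 of the 6 (H2-D1, H2-Aa, H2-Eb1 and Tap1) and in 3.83% of all windows. In H2-K1, H2-D1 and B2m the first letter of an ATTGG lay exactly 25 bases after that of a TGACG, and in H2-Aa 26 bases after it. This spacing was chosen after the sequences had been read, and 50 of the 32851 windows, or 0.152%, held either version of it. The exact pattern taken as the interferon response element core was found in B2m alone of the 6, starting 139 bases before the start. It was found in 2.98% of all windows. Looser forms of this element were not searched for, so its absence from the other windows holds for the exact pattern only.

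Among WT mice, the class II genes were about 2 times as high in females as in males, and H2-D1 was also higher. Of the 10 members 5 rose in fWT relative to mWT mice and none fell, where 17.3% of all tested genes were called (8.81% in the higher direction), and 6 of the 10 had an unadjusted p under 0.01, where 18.2% of all tested genes had one. All 10 members had a positive log2 fold change, with a median of 0.56 against 0.00 over all genes. In such bulk samples, fewer cells of a type and less RNA per cell cannot be told apart. H2-Aa, the α chain of the A molecule, ranged in mWT mice from 9.20 to 15.1 CPM with a median of 11.3, and in fWT mice from 14.4 to 37.3 CPM with a median of 25.1. All fWT mice but mouse 5 exceeded every mWT mouse, and the log2 fold change came to 1.05 (SE 0.251, edgeR adjusted p = 0.00524).

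H2-Ab1, its β chain partner, ranged from 5.57 to 9.09 CPM in mWT (median 7.18) and from 7.85 to 21.7 CPM in fWT mice (median 14.7). Its log2 fold change came to 1.03 (SE 0.257, adjusted p = 0.00695), and again 5 of 6 fWT mice lay above all mWT mice. For H2-Eb1, the mWT mice lay between 6.33 and 10.1 CPM (median 7.58) and the fWT mice between 10.7 and 23.2 CPM (median 14.1). Its log2 fold change was 0.98 (SE 0.224, edgeR adjusted p = 0.00348). The α chain gene that would pair with it, annotated in this strain as the pseudogene H2-Ea-ps and looked up outside the lists, had 0 reads in all 24 libraries, which allows a level of up to 0.195 CPM.

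Cd74, the invariant chain, followed the class II chains. It ranged from 19.2 to 34.1 CPM in mWT (median 26) and from 32.1 to 72.9 CPM in fWT mice (median 45.1), with a log2 fold change of 0.87 (SE 0.246, adjusted p = 0.0167), and 5 of 6 fWT mice lay above all mWT mice. Ciita, their co-activator, had 6 to 16 reads in mWT and 11 to 38 reads in fWT libraries. Its levels were 0.374 to 1.02 CPM (median 0.672) in mWT and 0.604 to 1.72 CPM (median 1.27) in fWT mice, and the log2 fold change of 0.81 (SE 0.376) was not called (adjusted p = 0.145). Its 95% interval, from 0.03 to 1.58, also holds the values of the 4 class II genes.

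**Figure D1:**
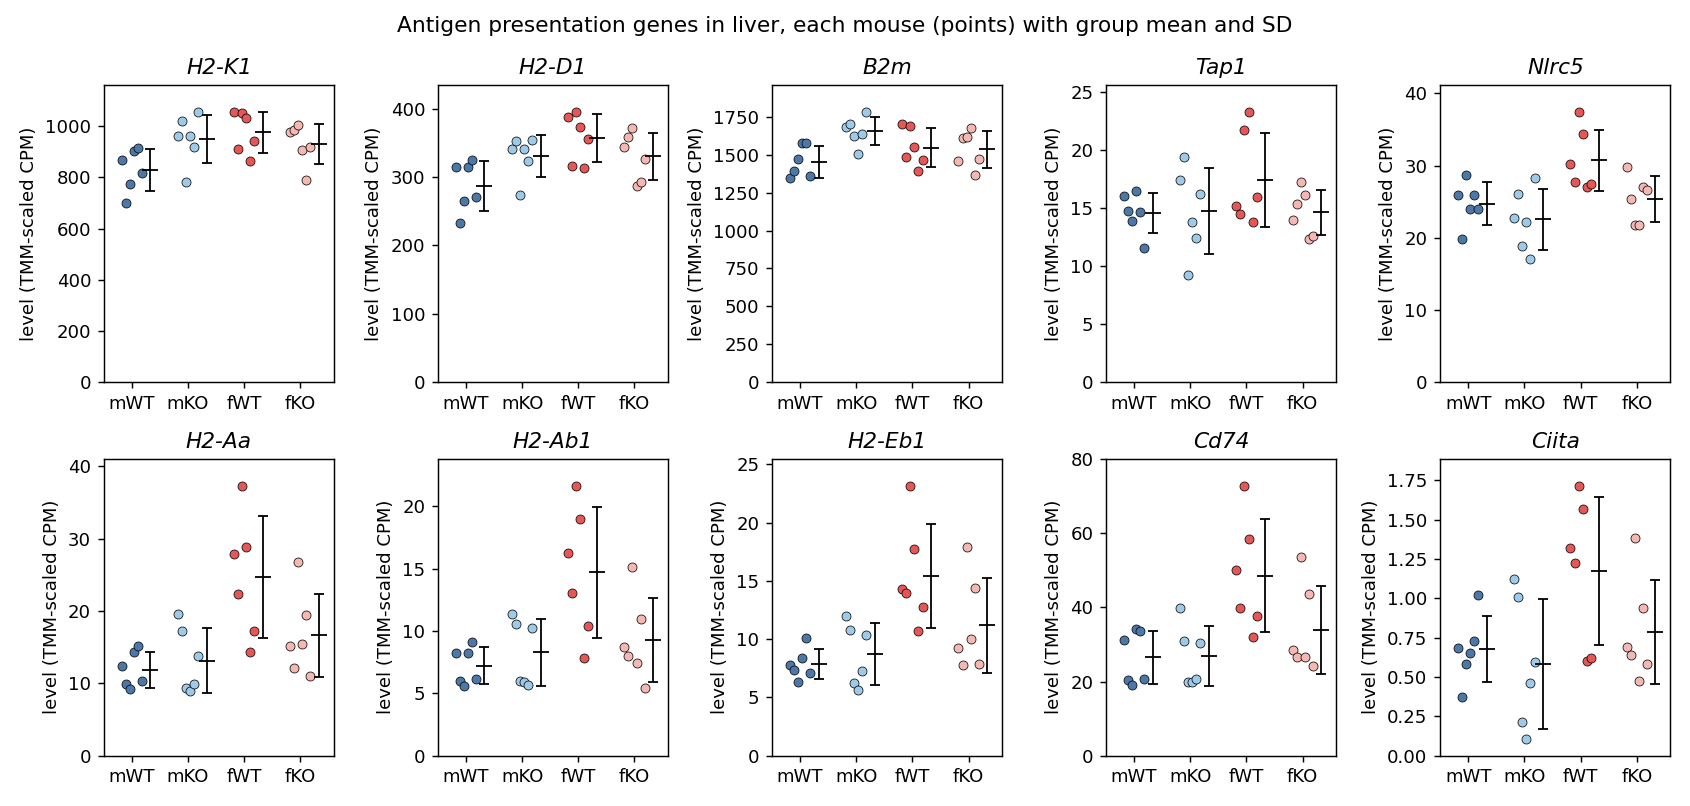
Levels of the 10 members in TMM-scaled CPM (vertical axes from 0, a scale for each gene) in each of the 24 mice (points), by group, with the group mean and SD beside them (n = 6). The fWT mice of H2-Aa, H2-Ab1, H2-Eb1 and Cd74 lie mostly above the mWT mice, while the 4 groups of B2m and Tap1 overlap.

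The class I genes differed less between WT males and females. H2-D1 ranged from 232.7 to 325 CPM in mWT (median 293) and from 313 to 395 CPM in fWT mice (median 364), and its log2 fold change of 0.31 (SE 0.0902) was called (adjusted p = 0.0161). H2-K1 ranged from 699.5 to 916 CPM in mWT (median 843) and from 864 to 1056 CPM in fWT mice (median 987). In both genes 4 of the 6 fWT mice exceeded every mWT mouse, but the log2 fold change of 0.23 for H2-K1 (SE 0.0825) had an adjusted p of 0.0502 and was not called. Nlrc5, the class I co-activator, was at 19.9 to 28.7 CPM in mWT (median 24.9) and 27.0 to 37.4 CPM in fWT mice (median 29.0), with a log2 fold change of 0.31 (SE 0.113, adjusted p = 0.0554). All mWT mice but mouse 3 lay below every fWT mouse.

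The light chain and the transporter were not called. B2m was at 1346 to 1580 CPM in mWT (median 1433) and 1392 to 1705 CPM in fWT mice (median 1518), a log2 fold change of 0.09 with a 95% interval from -0.06 to 0.24 (adjusted p = 0.418). For Tap1 the levels were 11.6 to 16.5 CPM (median 14.7) and 13.8 to 23.3 CPM (median 15.6), with a log2 fold change of 0.26 and an interval from -0.05 to 0.57 (adjusted p = 0.259). The groups overlapped in both genes.

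In KO mice none of the 10 members was called between the sexes, where 14.4% of all tested genes were (15.9% with an unadjusted p under 0.01, and 0 members). Adjusted p-values lay between 0.308 and 0.986, and 0 members had an unadjusted p under 0.05. H2-Eb1 was at 5.67 to 12 CPM in mKO (median 8.85) and 7.77 to 17.9 CPM in fKO mice (median 9.65), a log2 fold change of 0.36 with a 95% interval from -0.11 to 0.82. H2-Aa lay between 8.95 and 19.6 CPM in mKO (median 11.8) and between 11 and 26.8 CPM in fKO mice (median 15.3), a log2 fold change of 0.33 with an interval from -0.18 to 0.85. Both intervals hold 0. They end below the estimates in WT mice, which were 0.98 and 1.05, but overlap with the WT intervals of 0.515 to 1.44 and 0.53 to 1.58. The direct edgeR test of this difference, described below, called neither gene (adjusted p = 0.838 for both). Between KO males and females, the log2 fold changes were 0.33 for Cd74 and 0.16 for H2-Ab1, and -0.03 for H2-K1 and 0.00 for H2-D1.

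The study asked how the loss of Mup changes the liver in each sex. Within males, none of the 10 members was called in mKO relative to mWT mice, where 0.211% of all tested genes were, and 0 members passed the unadjusted p of 0.01 that the study used as its cut-off, which 3.52% of all genes passed. The class I members B2m, H2-K1 and H2-D1 came closest, with an unadjusted p under 0.05 in each of these 3. B2m was at 1508 to 1783 CPM in mKO mice (median 1663) against 1346 to 1580 CPM in mWT (median 1433), and 5 of the 6 mKO mice exceeded every mWT mouse. Its log2 fold change of 0.19 (SE 0.0704) had an unadjusted p of 0.0126 and an adjusted p of 0.303. H2-K1 was at 784 to 1055 CPM in mKO mice (median 963), also with 5 of 6 above every mWT mouse, a log2 fold change of 0.20 relative to mWT (SE 0.0825, adjusted p = 0.376). H2-D1 was at 273 to 355 CPM (median 341), a log2 fold change of 0.21 (SE 0.0901, adjusted p = 0.41).

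The class II genes of mKO mice overlapped with those of mWT mice, and their intervals were wide. The log2 fold changes were 0.21 for H2-Ab1 (95% interval -0.34 to 0.75), 0.16 for H2-Eb1, 0.15 for H2-Aa and 0.02 for Cd74 (-0.49 to 0.54), with adjusted p-values of at least 0.863. Within the mKO group, H2-Ab1 formed a low and a high set, with mice 3, 4 and 5 at 5.96, 5.88 and 5.70 CPM and mice 1, 2 and 6 at 11.4, 10.6 and 10.2 CPM. Ciita, with a log2 fold change of -0.15 and an interval from -1.0 to 0.69, was also lowest in mice 3, 4 and 5, at 0.211, 0.106 and 0.464 CPM, and was at 1.12, 1.01 and 0.594 CPM in mice 1, 2 and 6. The values of Nlrc5 (-0.13) and Tap1 (0.02) were not called either.

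In females, all 10 members had lower means in fKO than in fWT mice, but none was called, where 0.0892% of all tested genes were. Over the members the median difference was -0.37 on the log2 scale, against 0.00 over all genes. There were 5 members with an unadjusted p under 0.05, and 0 had one under 0.01, which 0.876% of all genes had. H2-Ab1 was at 5.43 to 15.1 CPM in fKO mice (median 8.36) against 7.85 to 21.7 CPM in fWT (median 14.7), a log2 fold change of -0.67 (SE 0.25, unadjusted p = 0.0141, adjusted p = 0.929). The groups overlapped, and 1 of the 6 fKO mice, mouse 3, lay above the fWT median. That mouse was also the highest fKO animal for H2-Aa (26.8 CPM), H2-Eb1 (17.9 CPM), Cd74 (53.6 CPM) and Ciita (1.38 CPM). Without it 4 members had an unadjusted p under 0.01, and still 0 were called.

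The other class II members in females gave log2 fold changes of -0.57 for H2-Aa, -0.52 for Cd74, -0.46 for H2-Eb1 and -0.58 for Ciita, all with an adjusted p of 0.929. Nlrc5 was at 21.8 to 29.8 CPM in fKO mice (median 26), a log2 fold change of -0.28 relative to fWT (SE 0.112, unadjusted p = 0.0215, adjusted p = 0.929). The class I chains and their loading were closer to 0, with -0.07 for H2-K1, -0.11 for H2-D1, -0.25 for Tap1 and -0.01 for B2m.

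**Figure D2:**
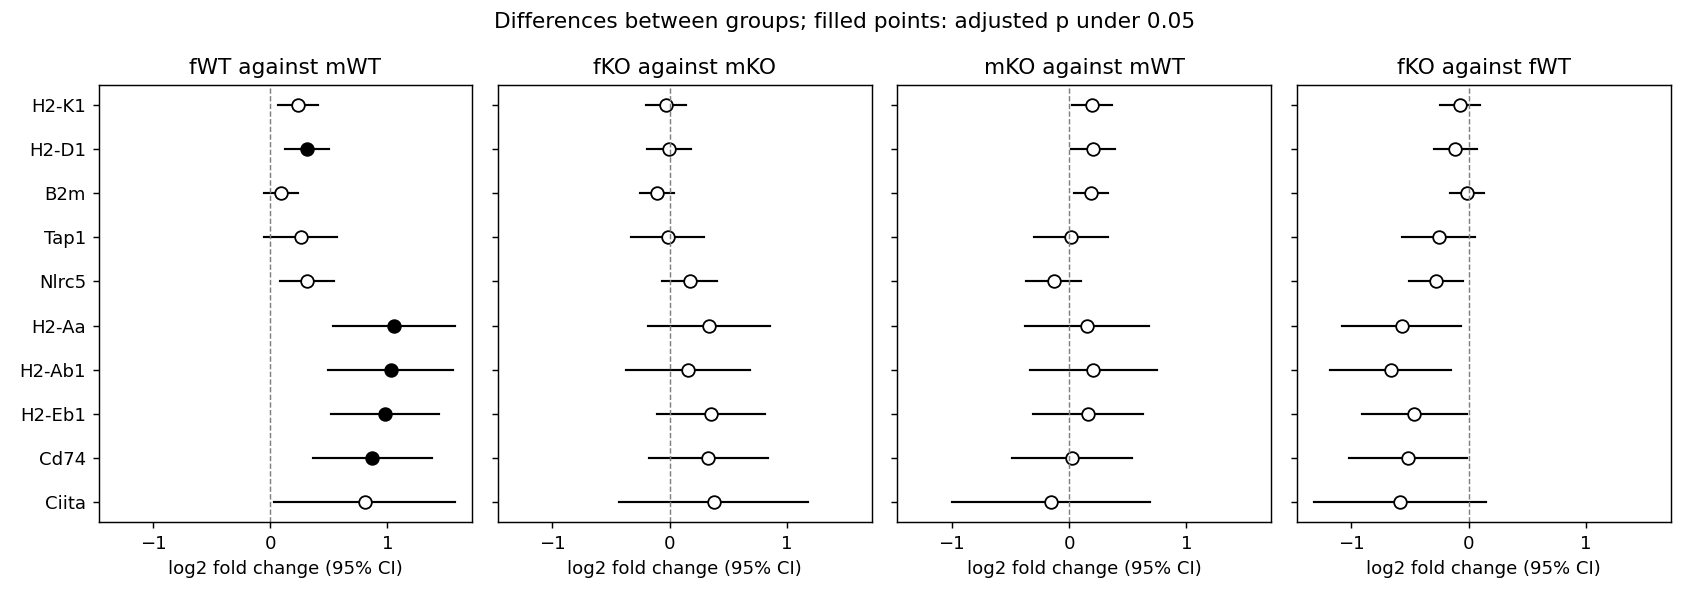
Log2 fold change of each member (points) with its 95% confidence interval (lines) in 4 comparisons, from the edgeR fit to all 24 mice. Filled points, with an adjusted p under 0.05, are found for H2-D1, H2-Aa, H2-Ab1, H2-Eb1 and Cd74 in fWT against mWT, and all points of the other 3 comparisons are open.

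The comparisons above share groups, so their directions are not independent of each other. The members also vary together across mice, as described below. A sign shared by all 10, here or above, is therefore not 10 separate observations. The difference between them was tested directly as the KO effect in males minus the KO effect in females, which is the same contrast as the sex difference in WT minus that in KO mice. It was above 0 for all 10 members, from 0.14 for Nlrc5 to 0.87 for H2-Ab1, with a median of 0.37 against 0.00 over all genes. None was called (adjusted p between 0.823 and 0.939), where 0.00811% of all tested genes were. H2-D1 (0.32), H2-Ab1 (0.87) and H2-K1 (0.27) had an unadjusted p under 0.05, the lowest being 0.0194 for H2-D1, and 0 members had one under 0.01, which 1.16% of all genes had. The 5 members called between WT males and females and the 0 called between KO males and females are therefore not shown to differ. For the KO effect averaged over both sexes, 0 members were called, where 0.17% of all tested genes were, and Nlrc5 had the lowest p, with a log2 fold change of -0.20 (unadjusted p = 0.0172, adjusted p = 0.397), while 0 members and 2.83% of all genes had an unadjusted p under 0.01.

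Markers of Kupffer cells moved with the class II genes. In fWT against mWT mice 17.3% of all tested genes were called (8.81% in the higher direction), beside which the counts of markers are to be read. Of 11 Kupffer cell and macrophage markers, 8 rose in fWT relative to mWT mice, among them Vsig4, a complement receptor (log2 fold change 1.05, adjusted p = 0.00535), and Cd5l (0.84, adjusted p = 0.00779). Clec4f, a lectin particular to Kupffer cells, also rose (0.73, adjusted p = 0.0223). Their summed level was 101.3 to 212 CPM in mWT, 190.5 to 339 CPM in fWT, 99.4 to 269.5 CPM in mKO and 157.5 to 283 CPM in fKO mice, and no marker of this list was at 0 in all mice of a group. None of the 11 was called in the 3 other comparisons of groups, and all 11 had negative log2 fold changes in fKO relative to fWT mice (median -0.32).

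Markers of other cells were summed as well. The 8 B cell markers summed to 5.54 to 17.2 CPM in fWT and 6.10 to 27.2 CPM in mWT mice, and 0 of the 5 tested were called. The 8 dendritic cell markers summed to 7.81 to 12.5 CPM in fWT and 7.62 to 9.78 CPM in mWT mice, with 0 of the 3 tested called. Of 6 sinusoidal endothelial markers, 3 rose in fWT mice (Clec4g, Oit3 and Stab2, log2 fold changes 0.39, 0.34 and 0.32), with a sum of 140.6 to 189.6 CPM against 124.5 to 155 CPM in mWT mice. Of 6 stellate cell markers 1, Dcn, rose, a share near the 17.3% of all tested genes called in this comparison. Of 10 T and NK cell markers only Cd4 was expressed highly enough to be tested, and it fell (log2 fold change -1.95). The other 9, none of them tested, had higher mean levels in fWT than in mWT mice, and the sum of the 10 was 2.47 to 6.39 CPM in fWT and 1.44 to 3.84 CPM in mWT mice. Of 4 red blood cell markers 1, Alas2, fell in fWT mice, and the sum was 37.8 to 62.6 CPM against 146.6 to 206 CPM in mWT mice. Most of this gap lay in Alas2, with a mean of 12.1 CPM in fWT and 131.6 CPM in mWT mice. The haemoglobin genes Hba-a1, Hbb-bs and Hbb-bt had log2 fold changes of -0.44, -0.31 and -0.31 and were not called. None of the 2 cholangiocyte markers tested was called, and the 6 neutrophil markers summed to at most 1.72 CPM.

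When the class II genes were set against the Kupffer marker sum of the same liver, a ratio chosen after the values had been seen, no difference was called. Per 100 CPM of Kupffer markers, H2-Ab1 was at 4.89 ± 0.928 CPM (SD, n = 6) in mWT, 5.58 ± 1.17 in fWT, 5.50 ± 1.44 in mKO and 4.44 ± 0.8 in fKO mice. For H2-Aa the values were 8.05 ± 1.57, 9.38 ± 1.66, 8.62 ± 1.92 and 7.95 ± 0.959 in the same order. The log2 difference of these ratios between fWT and mWT mice was 0.19 for H2-Ab1 (two-sided exact permutation test, p = 0.286), 0.22 for H2-Aa, 0.17 for H2-Eb1 and 0.08 for Cd74. Over the 16 such exact permutation tests of 4 genes in 4 comparisons, the adjusted p was at least 0.576. The smallest unadjusted p the design allows is 0.00216. The largest log2 difference of the 16 was -0.325, for H2-Ab1 in fKO against fWT mice (exact permutation test, p = 0.0844). With 6 mice in each group, a difference that was not called is not shown to be absent.

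Across individual mice, the class II genes varied closely together, and so did both heavy chains. With the group means removed, the levels of the 24 mice correlated at r = 0.967 between H2-Aa and H2-Ab1, at 0.955 between H2-Aa and Cd74 and at 0.918 between H2-Ab1 and H2-Eb1. H2-K1 and H2-D1 correlated at r = 0.936, while pairs of a heavy chain and a class II chain or Cd74 lay between 0.411 and 0.624. Tap1 correlated about as closely with the class II chains and Cd74 (0.634 to 0.695) as with H2-K1 (0.669) and H2-D1 (0.603). The lowest of the 45 pairs was B2m with Nlrc5 at 0.192. These values are given as a description, since all genes of a mouse come from the same library.

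**Figure D3:**
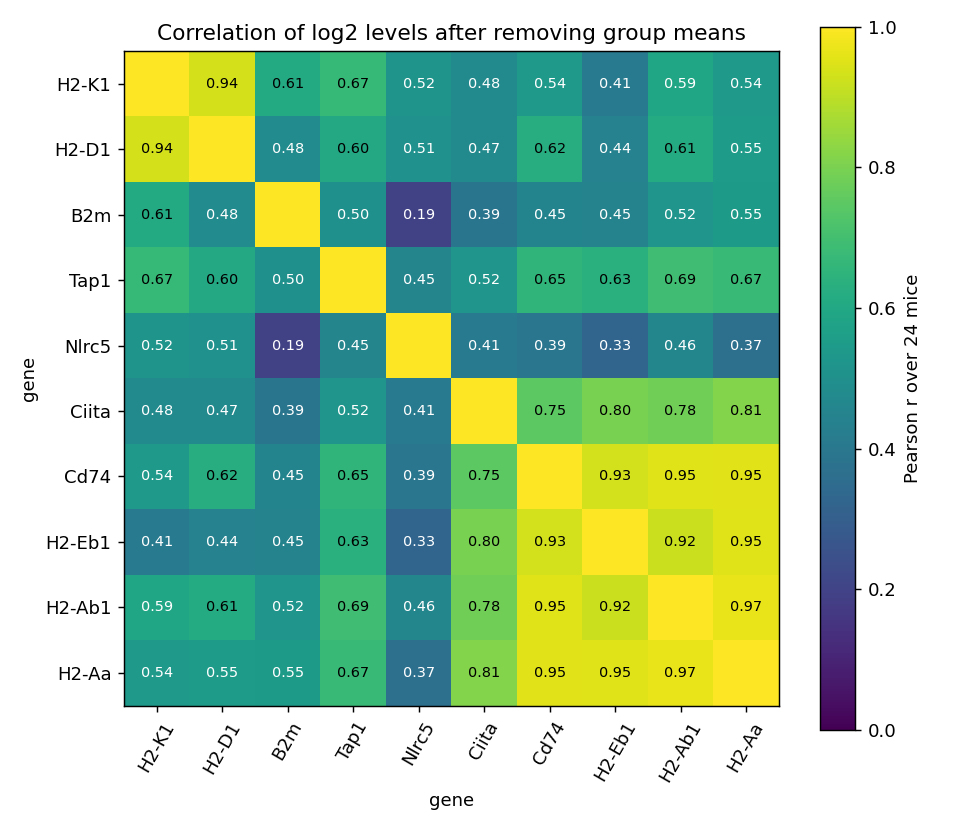
Pearson r between the log2 levels of each pair of members over 24 mice after the group means were removed (colour from 0 to 1, values written in the cells). The class II genes with Ciita form the block of high values at the lower right, and H2-K1 with H2-D1 the pair at the upper left.

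In all, 20 relations of the members with their co-activators and with cell markers were tested with permutations of mice within groups, and 10 of them had an adjusted p under 0.05. Ciita correlated with all 4 class II genes. For H2-Aa, Pearson's r was 0.814 and Spearman's rho 0.857, both with a permutation p of 1e-05, the smallest these draws can give, and adjusted p = 0.0001. For H2-Ab1 they were 0.783 and 0.859, for H2-Eb1 0.798 and 0.831 and for Cd74 0.747 and 0.781. Without mKO mice 3 and 4, which lay farthest from the median of Ciita, r was between 0.741 and 0.821. The relation of Ciita to H2-Ab1 was present at r = 0.85 in mKO, 0.96 in fWT and 0.89 in fKO mice, but was 0.26 in mWT mice, with 6 animals in each.

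Nlrc5 correlated less closely with the class I genes. Pearson's r was 0.516 with H2-K1 (permutation p = 0.0188, adjusted p = 0.0375) and 0.505 with H2-D1 (permutation p = 0.0171, adjusted p = 0.0375), and Spearman's rho was 0.477 and 0.458, both with an adjusted permutation p of 0.0535. Without fWT mouse 3 and mKO mouse 5, r remained at 0.51 and 0.50, but the adjusted permutation p rose to 0.0614 for both. Within groups, r with H2-K1 was 0.49 in mWT, 0.78 in mKO and 0.81 in fWT mice and -0.21 in fKO mice. With Tap1 (r = 0.454) and B2m (r = 0.192) the relation was not called, with adjusted permutation p-values of 0.106 and 0.419. These values join groups of opposite sign. For Tap1, r was -0.03 in mWT, 0.75 in mKO, 0.91 in fWT and -0.77 in fKO mice. For B2m it was 0.24, 0.54, 0.74 and -0.8 in the same order.

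H2-Ab1 correlated with the Kupffer marker sum at r = 0.748 and rho = 0.745 (permutation p = 2e-05 for both, adjusted p = 0.0001 for r). Without the 2 farthest mice, fWT 1 and 3, r was 0.714, and within the 4 groups it lay between 0.68 and 0.86. H2-Ab1 was also related to the T and NK cell marker sum (r = 0.586, rho = 0.551, adjusted permutation p = 0.0179 for r), a list whose genes summed to at most 6.39 CPM. Within groups this r was 0.04 in mWT, 0.65 in mKO, 0.91 in fWT and 0.58 in fKO mice. Cd4 alone averaged 1.64 of the 2.945 CPM of this sum in mWT mice, but 0.415 of 4.435 CPM in fWT mice. The relation of H2-Ab1 to the sum of 15 interferon-induced genes was called too (r = 0.548, rho = 0.54, adjusted permutation p = 0.0375 for r). Of this sum, Iigp1 alone averaged 312 of the 485.5 CPM in mWT mice. Within groups r with it was 0.35 in mWT, 0.66 in mKO, 0.70 in fWT and 0.29 in fKO mice. The dendritic cell (r = 0.444), endothelial (0.415) and B cell sums (0.37) were not called. In mWT mice Zbtb46 averaged 5.35 of the 8.37 CPM of the dendritic cell sum, and Ighm 10.9 of the 14.0 CPM of the B cell sum. These 2 results therefore say little about the other markers of those lists. With group means kept, so that differences between groups enter too, r was 0.572 for the dendritic cell, 0.613 for the endothelial and 0.065 for the B cell sum. For H2-K1 only the T and NK cell sum was called by Pearson's r (0.501, rho = 0.62, adjusted permutation p = 0.0375 for r). Within groups this r was 0.33 in mWT, 0.87 in mKO, 0.98 in fWT and 0.06 in fKO mice. With the Kupffer sum, r of H2-K1 was 0.366 (adjusted permutation p = 0.148) and rho 0.504 (adjusted permutation p = 0.049).

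**Figure D4:**
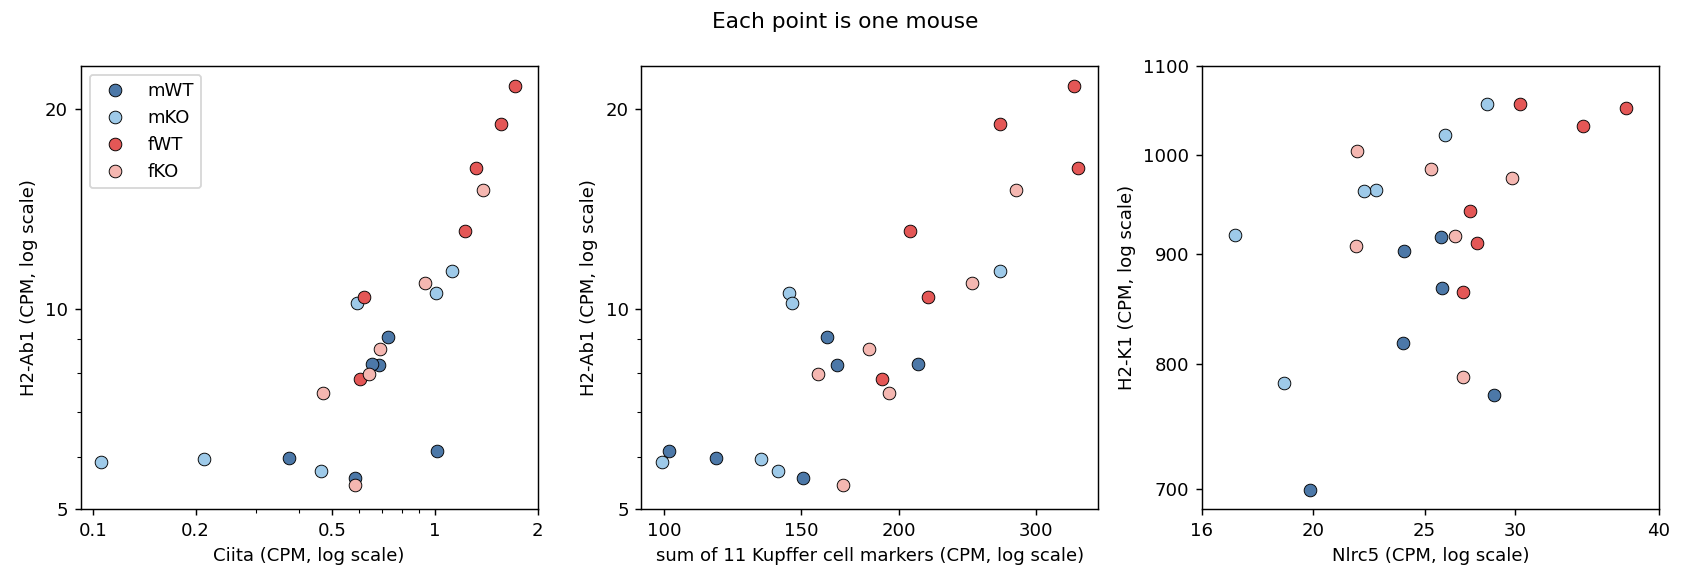
Levels in CPM on log scales for each of the 24 mice, for H2-Ab1 against Ciita (left), H2-Ab1 against the sum of 11 Kupffer cell markers (middle) and H2-K1 against Nlrc5 (right), coloured by group. H2-Ab1 rises with Ciita and with the Kupffer sum, and the points of H2-K1 and Nlrc5 are more scattered.

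Outside the members, the genes whose levels followed H2-Ab1 most closely over the 24 mice were Gm49339 (r = 0.839), H2-DMb1 (0.837), Sirpa (0.814), Klrk1 (0.8) and Gbp9 (0.798). H2-DMb1 encodes a chain of the H2-DM molecule that exchanges peptides on class II, Sirpa is a receptor of myeloid cells, and Klrk1 is the activating receptor NKG2D. For H2-K1 they were Psmb8 (0.855), an immunoproteasome subunit, the class I heavy chains H2-Q4 (0.816), H2-T22 (0.791) and H2-T23 (0.771), and Vmo1 (0.768). The counts of such related heavy chains are uncertain where a read matches more than 1 of them.

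The wider pathway was read from 5 lists, in which the members are included. Over all tested genes 17.3% were called in fWT against mWT mice and 14.4% in fKO against mKO mice, against which the counts of each list are to be read. Of 16 class II chains, partners and loading genes in the files, 11 were tested and 8 rose in fWT relative to mWT mice. Besides the 4 members these were H2-DMa (log2 fold change 1.11, adjusted p = 0.00857) and H2-DMb1 (1.03, adjusted p = 0.0103), which form H2-DM, Ctss (0.90, adjusted p = 0.00804), the protease that removes the invariant chain, and Lgmn (0.30, adjusted p = 0.0415), an endosomal protease. All 11 had positive values, with a median of 0.90, and the summed level was 86.5 to 130.1 CPM in mWT and 124.9 to 247 CPM in fWT mice. In KO mice 0 of the 11 were called between the sexes, with a median of 0.36.

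Among the class I heavy chains, 16 of 20 were tested, and 10 rose and 1 fell in fWT relative to mWT mice. The largest rise was that of H2-Q1 (log2 fold change 1.26, SE 0.265, adjusted p = 0.00174). H2-Q4 (0.56), H2-T23 (0.47), which encodes the Qa-1 molecule seen by NK cells, and H2-T22 (0.38) had the smallest p-values. H2-Q10, which encodes a class I molecule secreted by the liver, was the gene that fell, with a log2 fold change of -0.37 (SE 0.0866, adjusted p = 0.00328). Its mean level was 1645 ± 114 CPM in mWT and 1270 ± 178 CPM in fWT mice (SD, n = 6). In KO mice H2-Q1, H2-Q4, H2-T22 and H2-T23 were again called higher in females and H2-Q10 lower (log2 fold change -0.54, adjusted p = 6.2e-05), while H2-D1 was not called.

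Of 14 genes that supply and load class I peptides, 2 rose in fWT relative to mWT mice, a share near that of all tested genes (17.3% called, 8.81% higher). They were Tapbp, the chaperone tapasin (log2 fold change 0.47, adjusted p = 3.81e-05), and Psmb8 (0.38, with an adjusted p that rounds to 0.05). In KO mice, where 14.4% of all tested genes were called, 4 rose in females, Tapbp (0.49), Psmb8 (0.48), Psmb10 (0.44), another immunoproteasome subunit, and Erap1 (0.19), which trims peptides. The 2 members on this list, B2m and Tap1, were called in neither.

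Of 20 regulators of MHC genes tested, 2 rose in fWT relative to mWT mice and 1 fell, a share no higher than the 17.3% of all tested genes. Rfx5, a subunit of the RFX complex, rose with a log2 fold change of 0.44 (adjusted p = 0.0225) and Ifngr1, a chain of the interferon gamma receptor, with 0.41 (adjusted p = 0.00282). Irf2, a factor that competes with Irf1, fell with -0.32 (adjusted p = 0.00328). Of these 3, Ifngr1 (0.43) and Irf2 (-0.32) were also called between KO males and females. The NF-Y subunits Nfya, Nfyb and Nfyc and Creb1 had log2 fold changes between -0.09 and 0.13 in WT mice and were not called.

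Of the 15 interferon-induced genes, 11 rose in fWT relative to mWT mice, and the median over the list was 0.65 on the log2 scale. The 4 with the smallest p-values were Igtp (1.27, adjusted p = 4.78e-08), Gbp3 (1.35, adjusted p = 1.09e-06), Gbp7 (0.88, adjusted p = 3.69e-05) and Gbp2 (1.29, adjusted p = 0.000448), GTPases that act against intracellular pathogens. In KO mice 5 rose in females, Gbp2, Gbp3, Gbp7, Igtp and Oasl2, with log2 fold changes between 0.70 and 1.35. No gene of the 5 lists was called between KO and WT mice of either sex or for the difference between the KO effects.

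**Figure D5:**
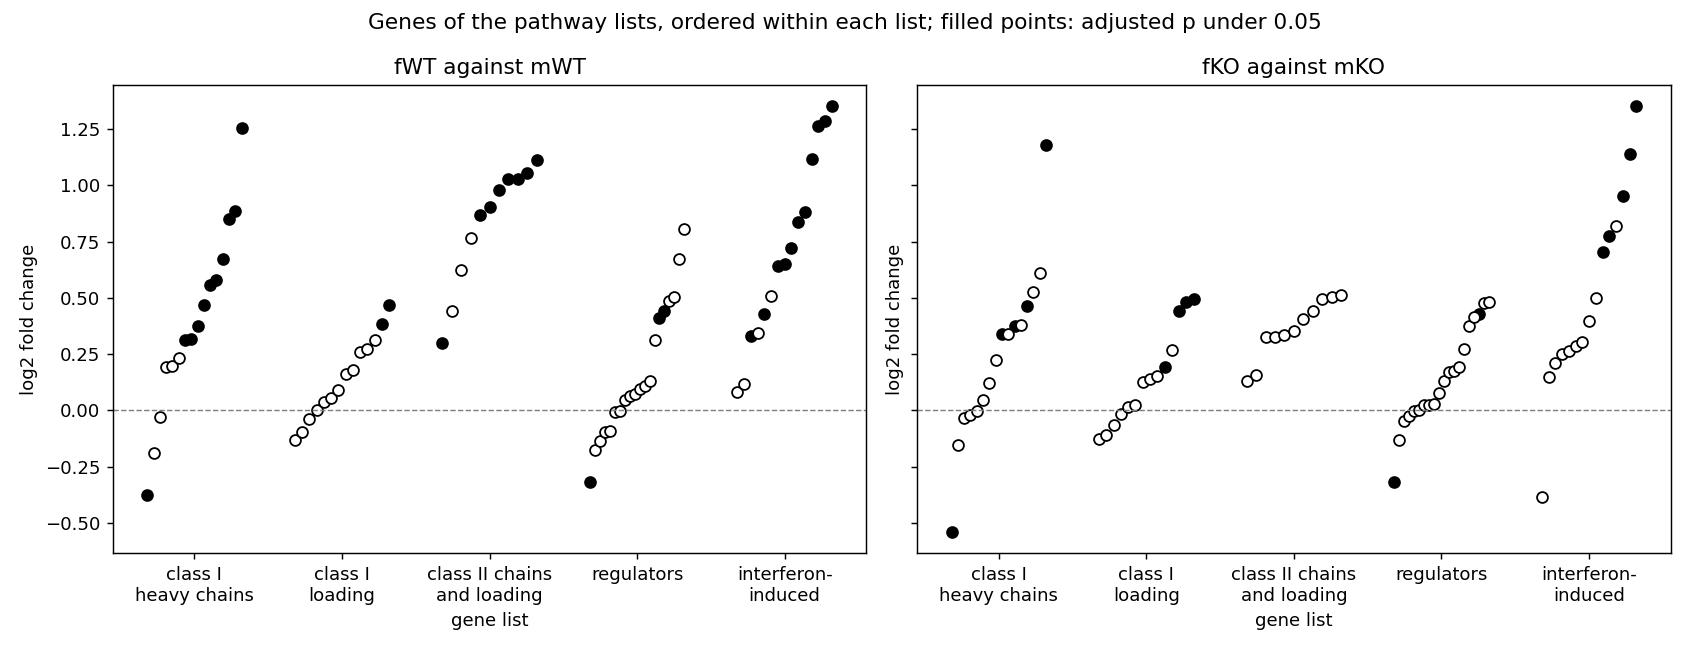
Log2 fold change of every tested gene of the 5 lists, ordered within each list, in fWT against mWT (left) and fKO against mKO (right), with filled points for an adjusted p under 0.05. The class II list has 8 filled points of 11 in WT and 0 in KO mice, and the interferon-induced list 11 of 15 in WT and 5 in KO mice.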

How the data were processed

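Liver RNAseq was available for 24 mice. The authors prepared libraries with a stranded mRNA kit, sequenced them as single-end reads, and then used fastp 0.20 for trimming, STAR 2.7a for alignment against GRCm38.p6 (versions from the submitters' processing notes) and featureCounts of Rsubread for counting. The deposited values are raw counts per Ensembl gene. The strand setting and the treatment of multi-mapping reads are not given in the sources used here, and the counts of near-identical and overlapping genes are uncertain. Total counts were 15361901 to 26261394 per library. Gene symbols came from GENCODE M21, which lacked 34 of the 25746 genes, and promoter windows from RefSeq. Genes that reached 0.66 CPM in 6 or more of the 24 libraries were tested with edgeR 4.0.16 (R 4.3.3, TMM, robust quasi-likelihood fit of the 4 groups, all libraries), with Benjamini-Hochberg adjustment over 12330 genes. The authors' cut-off, an unadjusted p of 0.01, was counted beside it. The procedure was tested on simulated data.

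The members, the 5 pathway lists and the 11 marker lists were chosen with earlier results of these data known. The genes named are the 10 members, the genes of each pathway list that were called (up to 4 with the smallest p in a comparison, with further genes named after their values were seen), and the 5 genes outside the members most like H2-Ab1 and H2-K1. Of the listed genes, Ifi30 and H2-K2 were not analysed here. One further regulator of the planned list is not reported here, so the counts of that list cover its other genes only. RPKM was computed from the TMM-scaled CPM and the summed exon length. Correlations used log2(CPM + 0.1) with group means removed and 100000 permutations within groups, two-sided. Alternatives were DESeq2 1.42.0, its size factors, 3 other filters, non-robust dispersions, only the groups compared, removal of the Mup genes, the replicate number as a block, and each mouse left out in turn. Each library was a different mouse, and mice of a group differed beyond sampling noise (lowest chi-square per gene 8.14). Figures were drawn with matplotlib 3.10.9.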

Additional observations from a re-analysis of the deposited data

Results flagged for a closer look

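For the 10 members and the 11 marker sums, 84 sets of 6 mice were checked for an animal far from the other 5, by the gap to its nearest neighbour as a share of the range of the group. Chance alone marks about 1 in 20 such groups, and 3 of the 84 stood out, all of them marker sums. The Kupffer marker sum of mKO mouse 1 was 269.5 CPM, where the median of its group was 142.4 CPM. The same mouse had the highest H2-Ab1, H2-Aa, H2-Eb1, Cd74 and Ciita levels among the mKO mice. The B cell marker sum was 44.2 CPM in mKO mouse 4 (group median 16.1 CPM) and 28.6 CPM in fKO mouse 3 (group median 8.18 CPM). A single marker of this list, Ighm, reached 39.8 CPM in the mKO group and 19.1 CPM in the fKO group. mKO mouse 4 was among the 3 lowest of its group for the class II members, whereas fKO mouse 3 was the highest of its group for them. No member stood out in any group. The relations of H2-Ab1 and H2-K1 to these sums over all mice are given above. How far the cell markers of these mice account for their levels of the members was not tested.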

How the results depend on the processing

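The count of members called was 0 in every alternative for both KO comparisons, their difference, their average and fKO against mKO. In fWT against mWT it lay between 5 and 6 under other tools, filters and fits and between 5 and 7 with each mouse left out. H2-D1, H2-Aa, H2-Ab1 and H2-Eb1 were called in all of them, and Cd74 in all but the fit with the replicate block. H2-K1, with an adjusted p of 0.0502, was called with DESeq2 (0.031), with a filter of at least 2 libraries (0.0464), with non-robust dispersions (0.0493) and with edgeR's own filter (0.05 when rounded), and also without mWT mouse 4 or 5, mKO 3 or 6, fWT 2 or 5, or fKO 4 or 5 (0.0338 to 0.0499). Nlrc5 was called with only the groups compared (0.0424), with the block (0.0389) and without mWT mouse 3, mKO 5 or 6, or fWT 2, 5 or 6 (0.0395 to 0.0497). Of 20 correlations, 10 were called, and 8 to 15 in the alternatives.

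The number of members with an unadjusted p under 0.01 was 0 in 5 of the 6 comparisons. With DESeq2 it was 1 in mKO against mWT and 1 in fKO against fWT. With each mouse left out it ranged from 0 to 2 in mKO against mWT (2 without mKO mouse 3, and 1 without mWT 4 or 5, mKO 4 or fKO 4) and from 0 to 4 in fKO against fWT (4 without fKO mouse 3, 2 without fWT 5 and 1 without fWT 6). It ranged from 0 to 2 for the difference of the KO effects (2 without mKO mouse 3, and 1 without fWT 5 or fKO 3) and from 0 to 1 for their average (1 without mWT 2, mKO 6 or fKO 1).

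Signs turned in values near 0, none of them called. With a mouse left out, the log2 fold changes in mKO against mWT ranged from -0.0018 to 0.241 for H2-Aa, from -0.125 to 0.109 for Cd74, from -0.0759 to 0.125 for Tap1 and from -0.469 to 0.0595 for Ciita. In fKO against fWT the range was from -0.0396 to 0.0195 for B2m, and in fKO against mKO it was from -0.0819 to 0.0134 for H2-K1, from -0.053 to 0.0372 for H2-D1, from -0.032 to 0.272 for H2-Ab1 and from -0.121 to 0.08 for Tap1. With group means kept, r was -0.009 for B2m with Nlrc5 and 0.216 for H2-K1 with the dendritic cell sum, and without the 2 farthest mice it was 0.224 for the latter and -0.079 for H2-K1 with the endothelial sum.

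The labels number the mice of each group, and the deviations of same-numbered mice correlated between -0.335 and 0.169, with 1 of 24 mice correlating best with its own number. With the replicate block Cd74 in fWT against mWT was not called (log2 fold change 0.86, adjusted p = 0.0628), Nlrc5 was, and the log2 fold change of Tap1 was -0.0103 in mKO against mWT and 0.0096 in fKO against mKO. Ciita could not be fitted with only the groups compared in mKO against mWT and fKO against mKO, where it did not pass the filter. The counts of Ciita, 2 to 38 reads, limit its precision, and 6 mice per group limit that of the class II genes.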
